A study of Homo sapiens with 18 samples.

Results

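The genes described here are 35 components of protein folding and of the unfolded protein response (UPR) in the endoplasmic reticulum (ER). They were picked by name, with no measured value in the rule, although earlier results of these data were known when they were chosen. Each member matched 1 of the 58051 Ensembl gene IDs in the count table. They fall into 3 stress sensors, 3 stress factors, 12 chaperones and co-chaperones, 6 oxidoreductases, 9 components of ER-associated degradation (ERAD) and 2 other membrane proteins. All 35 passed the filter on low counts in both cell lines.

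RNA was sequenced from SKMEL2 and SKMEL30, established human melanoma lines with an NRAS change at codon 61. Each line carried a lentiviral, puromycin-selected, tet-ON pTRIPZ-PPP2R3B construct, which makes a regulatory subunit of protein phosphatase 2A when doxycycline is added. In each line 3 libraries came from uninduced cells, 3 from cells given doxycycline for 6 hours and 3 from cells given it for 18 hours, 18 libraries in all. Each line was 1 stable population, and no library came from cells given doxycycline without the PPP2R3B construct, so the drug and the transgene cannot be told apart. The labels give the later time as 18 hours, whereas the study's text names a slightly shorter one, and no source states when the uninduced cells were harvested. Nothing in the labels says that replicates were separate cultures, so p-values measure the spread between these libraries.

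The ER folds secreted and membrane proteins with the help of chaperones such as HSPA5 (BiP) and of enzymes that form disulfide bonds, and it sends proteins that fail to fold to the cytosol for degradation. When unfolded proteins accumulate, the sensors ATF6, ERN1 (IRE1) and EIF2AK3 (PERK) are activated, and cleaved ATF6 and the spliced form of XBP1 then switch on chaperone and ERAD genes. EIF2AK3 slows translation and leads to the stress factor DDIT3 (CHOP), and PPP1R15A (GADD34) brings a phosphatase to the target of EIF2AK3 to restore translation.

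A short promoter element, the ER stress response element (ERSE), is known from several of these genes, although the choice by name read no sequences. Its letters are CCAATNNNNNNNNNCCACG, in which N is any base, and a shorter form, ERSE-II, has the letters ATTGGNCCACG. A window of 250 bases before to 50 bases after each annotated start (RefSeq, GRCh38.p14) was found for 32 of the 35 members, all but DERL1, DERL3 and PDIA3, and both strands were searched. The ERSE was present in 8 of these 32 members (25.0%) and in 0.0916% of the 27305 genes with a window, and ERSE-II in 3 of 32 (9.38%) and in 0.0696% of genes. The 11 members with either element were among the 44 genes that held one in all. Because the element was already known from several of these genes, its share among the members describes the list and is not an independent result. A match describes letters in a window and not a bound site.

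The 250 bases upstream of HSPA5, the gene for the most studied ER chaperone, hold 1 exact ERSE (capitals). The stretch lies outside the transcript, at chr9:125241344-125241593 on the minus strand.
HSPA5: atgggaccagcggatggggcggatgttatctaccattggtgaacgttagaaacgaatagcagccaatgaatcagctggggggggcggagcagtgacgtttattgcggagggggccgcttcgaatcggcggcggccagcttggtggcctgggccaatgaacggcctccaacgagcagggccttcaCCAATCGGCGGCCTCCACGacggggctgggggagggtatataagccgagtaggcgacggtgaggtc
The other 7 genes with an ERSE are shown next with up to 15 bases on each side, and the element is again in capitals. All of these stretches lie upstream of an annotated start. HSP90B1 has the element at 2 places, on opposite strands. For CANX the same element lies upstream of 2 of its annotated starts and crosses another. The elements of CANX and PDIA6 lie inside the annotated span of their genes, upstream of a start within it. Where the capitals begin with CGTGG the element reads on the strand opposite to the gene.
CALR (chr19:12938369-12938417, plus strand): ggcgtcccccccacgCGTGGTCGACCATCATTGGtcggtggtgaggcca
CANX (chr5:179698763-179698811, plus strand): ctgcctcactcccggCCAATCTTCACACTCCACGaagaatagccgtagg
CRELD2 (chr22:49918539-49918587, plus strand): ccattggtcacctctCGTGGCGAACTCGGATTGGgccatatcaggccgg
ERO1B (chr1:236282168-236282208, minus strand): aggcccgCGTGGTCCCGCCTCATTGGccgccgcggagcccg
HSP90B1 (chr12:103930201-103930249, plus strand): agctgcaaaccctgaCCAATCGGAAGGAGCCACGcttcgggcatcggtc
HSP90B1 (chr12:103930306-103930354, plus strand): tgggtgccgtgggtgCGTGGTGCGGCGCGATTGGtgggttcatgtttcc
PDIA6 (chr2:10812838-10812886, minus strand): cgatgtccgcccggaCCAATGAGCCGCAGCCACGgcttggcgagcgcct
XBP1 (chr22:28800588-28800636, minus strand): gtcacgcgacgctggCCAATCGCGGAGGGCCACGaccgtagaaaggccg
The 3 genes with ERSE-II are shown in the same way, and HYOU1 has it at 2 places.
HERPUD1 (chr16:56932010-56932050, plus strand): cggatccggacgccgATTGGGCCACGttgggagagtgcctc
HYOU1 (chr11:119057259-119057299, minus strand): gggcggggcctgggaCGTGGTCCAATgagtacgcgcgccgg
HYOU1 (chr11:119057365-119057405, minus strand): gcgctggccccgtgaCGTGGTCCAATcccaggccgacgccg
SDF2L1 (chr22:21642099-21642139, plus strand): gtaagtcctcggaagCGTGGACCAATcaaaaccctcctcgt

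**Figure D1:**
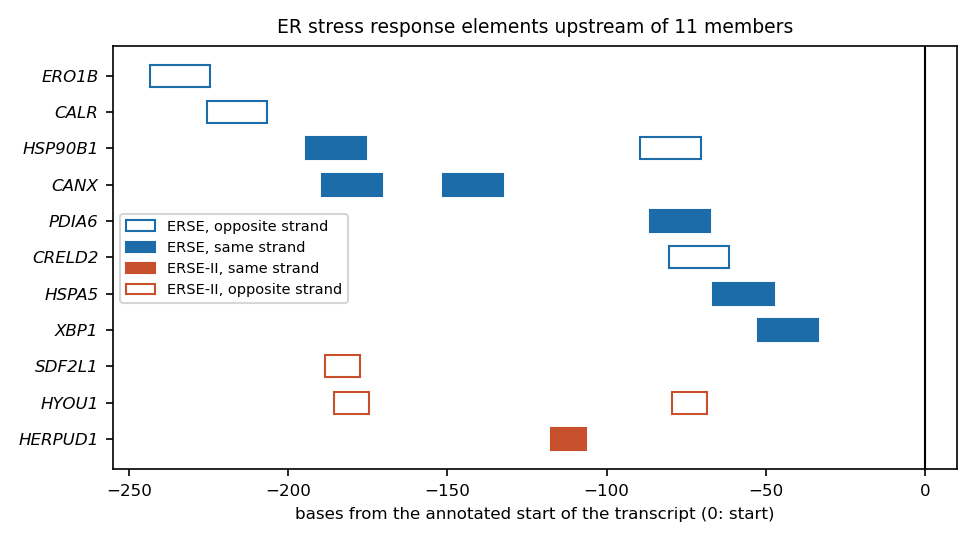
Position of the elements upstream of 11 members, in bases from the annotated start of the transcript (0). Filled bars lie on the strand of the gene and open bars on the opposite strand. The ERSE of XBP1 lies nearest to the start and that of ERO1B farthest from it, and HSP90B1, HYOU1 and CANX (2 starts) each have 2 bars. The CANX match that crosses another start is not drawn.

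The libraries held 13402645 to 22383470 estimated counts (median 17958636). The construct was on in every induced library: PPP2R3B stood at 17.2 to 24.4 CPM (counts scaled to the size of the library) in the 6 uninduced libraries and at 343 to 617 CPM in the 12 induced ones. All 8 melanocytic markers were at 1 CPM or more in every library, with sums of 4220 to 4920 CPM in SKMEL2 and 8800 to 9320 CPM in SKMEL30. TYRP1 was low in SKMEL2, at 3.44 to 12.1 CPM against 1110 to 1320 CPM in SKMEL30. Markers of other cell types were read in 4 lists, and some of them were present throughout. Of 6 fibroblast markers 2 in SKMEL2 and 1 in SKMEL30 were at 1 CPM or more in every library, with sums of 5.32 to 8.01 and 28.4 to 33.7 CPM, the latter mostly LUM at 27.5 to 32.7 CPM, while COL1A1 and DCN stayed under 1 CPM. Of 6 immune markers 3 in SKMEL2 and 1 in SKMEL30 were, with sums of 50.5 to 73 and 34.3 to 38.8 CPM. CD68 stood at 32.3 to 54.8 CPM in the 18 libraries and LYZ at 13.9 to 18.9 CPM in SKMEL2, while PTPRC and CD3E stayed under 1 CPM. Of 3 endothelial markers 2 in SKMEL2 and 0 in SKMEL30 were, with sums of 9.9 to 13.4 and 0.764 to 2.25 CPM, among them KDR at 7.26 to 10.6 CPM in SKMEL2, while CDH5 stayed under 1 CPM. Of 5 keratinocyte markers 2 in SKMEL2 and 1 in SKMEL30 were, with sums of 45.3 to 61.9 and 17.5 to 84 CPM, among them TP63 at 18.8 to 23.1 CPM in SKMEL2, while KRT1 was at 0. Among others, the ranges of LUM, LYZ, KDR, TP63 and CD14, and of every melanocytic marker but DCT, did not overlap between the lines. The share of all genes with ranges apart in this way was not counted, so this is not a trait particular to the markers. The part of these markers in the differences between lines given next was not tested. The SKMEL30 6-hour replicate 3 differed in its keratin genes, with KRT5 at 37.5 CPM and KRT14 at 26.4 CPM against at most 6.5 and 4.2 CPM in the other 8 SKMEL30 libraries. Uninduced SKMEL2 replicate 3 stood apart from its 2 partners over all genes (chi-square per degree of freedom up to 18.6, against 4.24 between the partners), and the 6-hour SKMEL2 libraries also spread widely (8.61 to 14.4). For the 35 members the coefficient of variation between replicates had a median of 5.48% in SKMEL2 and 2.69% in SKMEL30. RSEM (RNA-Seq by Expectation-Maximization) divides reads that match several genes, and HSPA5, HSP90B1, DDIT3, DNAJB11, PDIA3, PDIA6, P4HB, EDEM1 and DERL2 had fractional counts in most libraries, so part of their counts is shared with similar or overlapping sequences.

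The first question was how much of each gene the lines made before induction. Levels were compared between genes as CPM per kilobase of the canonical transcript. CALR and CANX, the lectin chaperones that hold newly made glycoproteins, and HSP90B1 (GRP94), an ER chaperone of the HSP90 family, were the most abundant members in both lines, joined in SKMEL30 by P4HB, a protein disulfide isomerase. CALR stood at 444 CPM per kb in SKMEL2 and 606 in SKMEL30, HSP90B1 at 438 and 353, and CANX at 318 and 423. P4HB stood at 168 CPM per kb in SKMEL2 and 441 in SKMEL30. In SKMEL2 the levels of CALR and HSP90B1 did not differ beyond the spread between libraries.

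The sensors lay far below the most abundant chaperones but overlapped with the less abundant ones. In SKMEL2, CRELD2 at 5.77, SDF2L1 at 6 and DNAJC3 at 7.82 CPM per kb were below ATF6, and in SKMEL30 DNAJB9 at 8.5 CPM per kb was below ATF6 and EIF2AK3. ATF6 stood at 13.3 CPM per kb in SKMEL2 and 15.8 in SKMEL30, EIF2AK3 at 4.14 and 10.2, and ERN1 at 1.95 and 2.37. ATF6 was thus the most abundant sensor and ERN1 the least abundant in both lines. The lowest levels belonged to DERL3, a channel component of ERAD, at 0.867 and 0.62 CPM per kb, and to ERO1B, an oxidase that recharges protein disulfide isomerases, at 0.843 and 2.17. These 2 genes are paralogs of abundant members: DERL1 stood at 22.7 and 26.5 CPM per kb and ERO1A at 26.1 and 33. The lowest estimated count of any member in any library was 26, for DERL3 in SKMEL30.

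**Figure D2:**
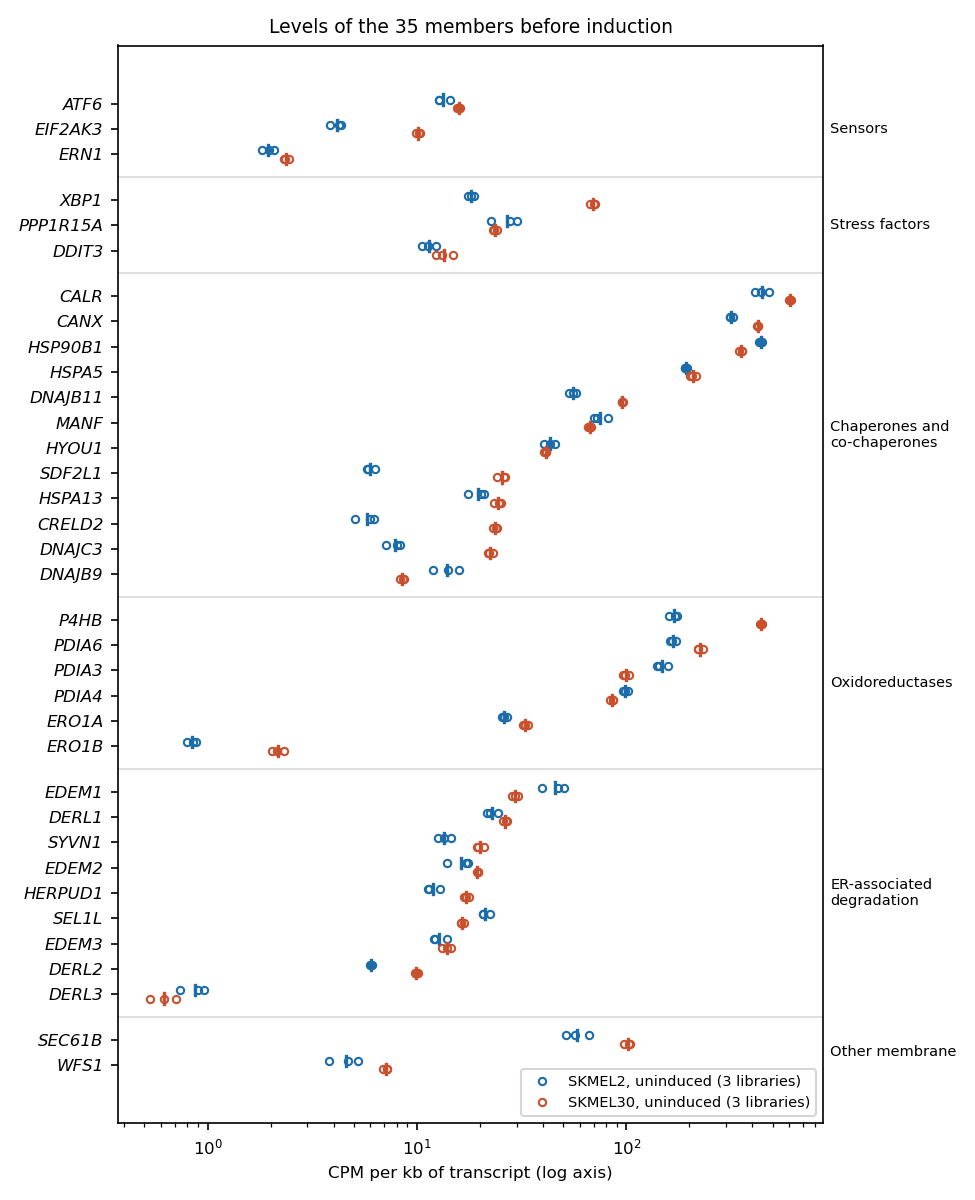
Level of each member in the 3 uninduced libraries of each line, in CPM per kb of transcript on a log axis; circles are libraries and vertical ticks are means. CALR, CANX, HSP90B1, HSPA5 and the disulfide isomerases sit at the right and ERN1, ERO1B and DERL3 at the left, and XBP1, SDF2L1, CRELD2, DNAJC3, P4HB, ERO1B and EIF2AK3 are the genes whose lines lie farthest apart.

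The uninduced lines were then compared gene by gene. A gene was called at an adjusted p under 0.05 (edgeR quasi-likelihood test, Benjamini-Hochberg over all 17133 genes tested). The lines differed in most genes, with 75.9% of all tested genes called, and 33 of the 35 members (94.3%) were called, all but HYOU1 and EDEM3. Of these, 24 members (68.6%) were lower in SKMEL2, against 35.8% of all genes, and 9 (25.7%) were higher, against 40.1%. A called difference of at least 2-fold was found in 7 members (20.0%) and in 34.7% of all genes, and all 7 members were lower in SKMEL2. The median log2 difference, SKMEL2 minus SKMEL30, was -0.32 over the 35 members and 0.055 over all genes. In absolute size the median was 0.448 over the members and 0.671 over all genes. The larger share of members called therefore does not mean larger differences. CPM are shares of each library, so the direction is relative to the other genes of the line. A gene made in fewer of the cells and less of its RNA per cell cannot be told apart.

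Among the sensors, all 3 were lower in SKMEL2. EIF2AK3, the kinase PERK, stood at 19.2, 17.5 and 19.8 CPM in SKMEL2 and at 46.2, 46.9 and 45.1 CPM in SKMEL30. The groups did not overlap, and the log2 difference was -1.29 (SE 0.065), or 2.45-fold (adjusted p = 6.04e-13, edgeR). The other sensors differed less, by -0.25 (SE 0.063) for ATF6 and -0.28 (SE 0.073) for ERN1, the kinase and nuclease that splices XBP1.

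XBP1, the transcription factor made from the RNA that ERN1 splices, showed the most marked difference among sensors and stress factors. It stood at 32.5, 33.4 and 31.4 CPM in SKMEL2 and at 126, 120.0 and 127 CPM in SKMEL30. The lines were far apart relative to their spread, with a log2 difference of -1.94 (SE 0.05), or 3.83-fold (adjusted p = 1.64e-17, edgeR). Counts per gene (XBP1, chr22:28794560-28800569) do not separate the spliced from the unspliced form. The other stress factors differed little, with -0.24 (SE 0.10) for DDIT3, a transcription factor of prolonged stress, and 0.19 (SE 0.084) for PPP1R15A. Their adjusted p-values, 0.0358 and 0.0449 (edgeR), lie close to the threshold, and the call was lost in 7 of 12 alternatives for DDIT3 and in 6 of 12 for PPP1R15A. Among these, DDIT3 lost it without uninduced SKMEL2 replicate 1 (-0.24) or 3 (-0.19) and without uninduced SKMEL30 replicate 3 (-0.18), and PPP1R15A lost it without uninduced SKMEL2 replicate 2 (0.16) or 3 (0.10) and without any one of the SKMEL30 replicates (0.17 to 0.20).

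Of the 12 chaperones and co-chaperones, 8 were called lower in SKMEL2 and 3 higher. SDF2L1, which works with HSPA5 and its J-domain partners, stood at 4.78, 5.22 and 4.84 CPM in SKMEL2 and at 21.8, 21.6 and 20.0 CPM in SKMEL30, a log2 difference of -2.09 (SE 0.16). CRELD2, a secreted ER stress protein, stood at 7.22, 8.95 and 8.54 and at 34, 34.3 and 32.9 CPM, a log2 difference of -2.03 (SE 0.093). These 2 genes were 4.27-fold and 4.08-fold lower in SKMEL2, and neither overlapped between the lines (adjusted p = 5.09e-10 and 1.38e-13, edgeR). DNAJC3 (p58IPK), a co-chaperone that also restrains EIF2AK3, stood at 46.5, 44.7 and 39.9 CPM in SKMEL2 and 123.5, 122 and 128 CPM in SKMEL30, a log2 difference of -1.51 (SE 0.06). DNAJB11, a J-domain partner of HSPA5, differed by -0.79 (SE 0.056).

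The major chaperones differed by less than 2-fold. CALR differed by -0.45 (SE 0.053) on the log2 scale, CANX by -0.42 (SE 0.038) and HSPA13, a microsomal HSP70 relative, by -0.32 (SE 0.065), all lower in SKMEL2. HSPA5 stood at 761, 750.4 and 747.5 CPM in SKMEL2 and at 806, 787 and 842 CPM in SKMEL30. The ranges did not overlap, but the log2 difference of -0.11 (SE 0.044) passed narrowly (adjusted p = 0.0316, edgeR) and was not called in 6 of 12 alternatives, among them those without uninduced SKMEL2 replicate 3 (-0.11) or SKMEL30 replicate 3 (-0.095). HYOU1 (GRP170), which exchanges the nucleotide of HSPA5, was not called, with 0.066 and a 95% interval of -0.044 to 0.18.

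The members that were higher in SKMEL2 came from several roles. DNAJB9 (ERdj4), a co-chaperone that brings HSPA5 to ERN1, stood at 38.1, 33.9 and 28.7 CPM in SKMEL2 and at 20.8, 20.6 and 20.0 CPM in SKMEL30, a log2 difference of 0.71 (SE 0.094) (adjusted p = 1.21e-06, edgeR). Its lowest SKMEL2 value came from replicate 3, and without that library the log2 difference was 0.81. HSP90B1 was higher by 0.31 (SE 0.049), and MANF, a secreted ER protein with neurotrophic activity, by 0.16 (SE 0.06). The MANF call was lost without uninduced SKMEL2 replicate 3, where the value was 0.087 (adjusted p = 0.195, edgeR), and also without uninduced SKMEL30 replicate 1 (0.15) or 2 (0.13).

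Among the oxidoreductases the isomerases diverged. P4HB stood at 391, 414 and 424.5 CPM in SKMEL2 and at 1062, 1089 and 1070 CPM in SKMEL30, a log2 difference of -1.39 (SE 0.068), or 2.62-fold (adjusted p = 3.85e-13, edgeR). PDIA3 (ERp57), the isomerase that works with CALR and CANX, went the other way, at 517, 529.9 and 583 CPM in SKMEL2 and 364, 356 and 378 CPM in SKMEL30, a difference of 0.57 (SE 0.047). PDIA4 was also higher in SKMEL2, by 0.20 (SE 0.044), whereas PDIA6 was lower, at -0.43 (SE 0.039). Both oxidases were lower in SKMEL2, ERO1B at -1.36 (SE 0.12) and ERO1A at -0.34 (SE 0.067).

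The 9 ERAD genes split, with 5 called lower and 3 called higher in SKMEL2. EDEM1, a lectin that draws misfolded glycoproteins into degradation, stood at 308, 287 and 242.5 CPM in SKMEL2 and at 174, 179 and 186 CPM in SKMEL30. It was the ERAD gene with the clearest excess in SKMEL2, with 0.63 (SE 0.064) (adjusted p = 2.6e-08, edgeR), and its relatives EDEM2 and EDEM3 stood at -0.27 (SE 0.091) and -0.13 (SE 0.064), of which EDEM2 was called and EDEM3 was not. The EDEM2 call was lost without uninduced SKMEL2 replicate 3 (-0.17), and EDEM3 was called without uninduced SKMEL2 replicate 1 (-0.20) or SKMEL30 replicate 2 (-0.18). SEL1L and SYVN1 (HRD1), the scaffold and the ubiquitin ligase of 1 complex, went in opposite directions. SEL1L was higher in SKMEL2, at 177, 163 and 163 against 128, 129 and 134 CPM, a log2 difference of 0.37 (SE 0.045). SYVN1 was lower, at 38.2, 41 and 44.2 against 59, 63.4 and 59.7 CPM, a log2 difference of -0.56 (SE 0.062). HERPUD1, an adaptor of the same complex, was lower, at -0.53 (SE 0.058).

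The 3 derlins, membrane proteins of the ERAD channel, also differed in direction. DERL2 was lower in SKMEL2, at -0.72 (SE 0.077), as was DERL1, at -0.22 (SE 0.05), whereas DERL3 was higher by 0.47 (SE 0.19) at a level of 2.68 ± 0.353 against 1.92 ± 0.276 CPM (SD, n = 3 each). DERL3 was called in 5 of the 12 alternatives, and its call was lost without uninduced SKMEL2 replicate 1 (0.39) or 2 (0.43) or SKMEL30 replicate 2 (0.45) or 3 (0.36). The remaining membrane proteins were lower in SKMEL2, WFS1 (wolframin) at -0.63 (SE 0.12) and SEC61B, a subunit of the channel through which proteins enter the ER, at -0.80 (SE 0.075). All 35 members kept the sign of their line difference in all 12 alternatives, and 27 were called in every one. The alternatives largely reuse the same libraries, and how many of all genes did the same was not counted. These counts therefore do not set the members apart from other genes.

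**Figure D3:**
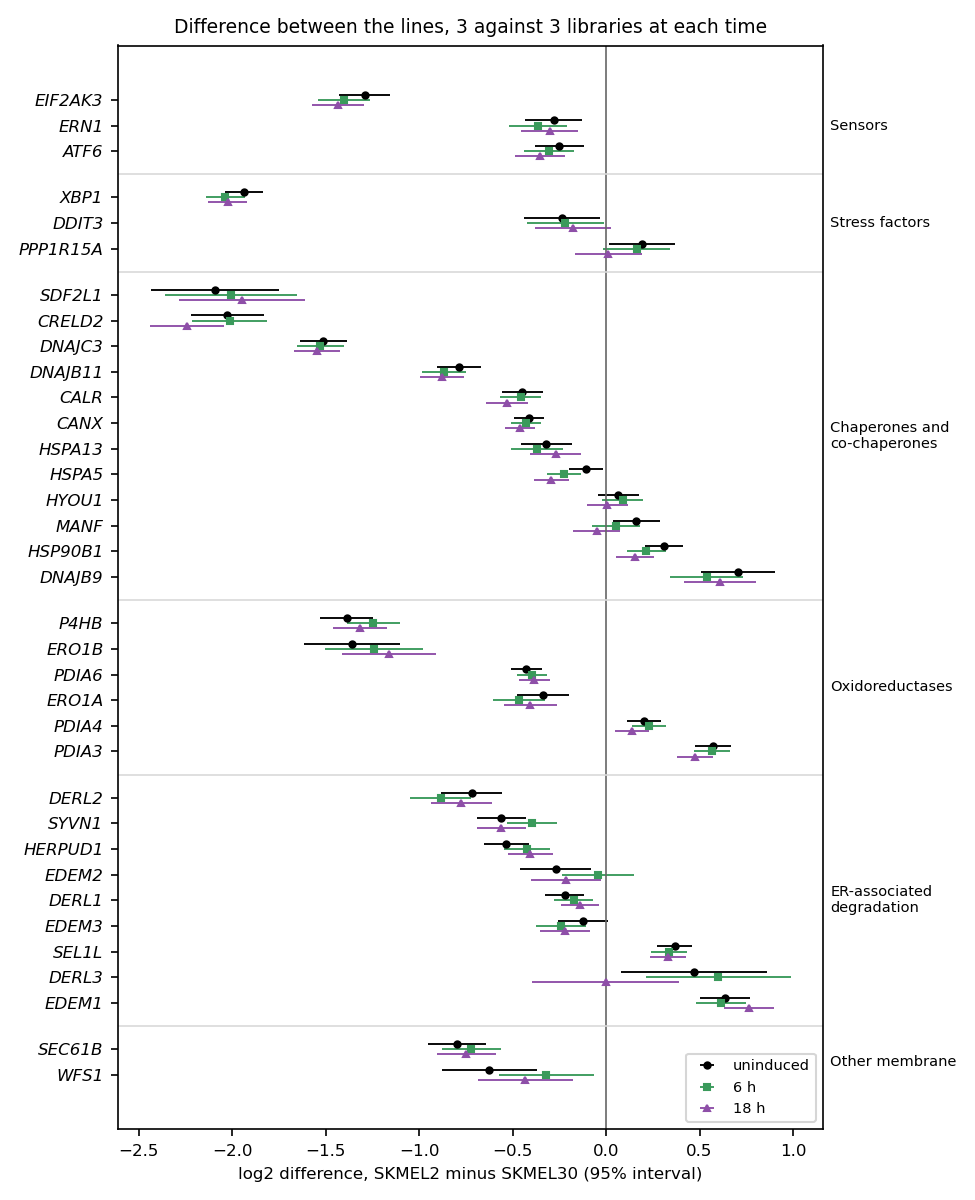
Log2 difference of each member between the lines (SKMEL2 minus SKMEL30) in uninduced cells and at 6 and 18 hours, with 95% intervals from edgeR; 3 against 3 libraries at each time. Values left of 0 are lower in SKMEL2, and the 7 members beyond -1 lie there at all 3 times.

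The line difference was next read in the induced libraries, which hold other libraries of the same lines. At 6 hours 30 of the 35 members (85.7%) were called between the lines, against 75.4% of all genes, and at 18 hours 30 (85.7%), against 75.1%. In all 3 comparisons 28 members were called with the same sign, and 33 kept their sign whether called or not. The 7 members that differed by at least 2-fold before induction did so at both later times too: XBP1 stood at -2.04 and -2.03, CRELD2 at -2.01 and -2.24, and SDF2L1 at -2.01 and -1.95 on the log2 scale. The shares of all genes that kept their call, sign or 2-fold difference were not counted. Whether the members stand out in this was therefore not tested. EDEM3, not called before induction, was called at 6 hours with -0.24 (SE 0.064) and at 18 hours with -0.22 (SE 0.064). HSPA5 was called at both times, with -0.23 (SE 0.044) and -0.29 (SE 0.044).

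The elements shown above did not mark 1 direction. Of the 11 members with an ERSE or ERSE-II, 9 had lower estimates in SKMEL2 and the median log2 line difference was -0.45 (range -2.09 to 0.31). Of the 21 members with a window but no element, 15 had lower estimates and the median was -0.28 (range -1.51 to 0.71). The 3 members with the largest differences, SDF2L1, CRELD2 and XBP1, all hold an element, and so do HSP90B1 and HYOU1, whose estimates were not lower. These are descriptions of the members and were not tested.

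The main question of the design was what happened after PPP2R3B was induced. No member was called against uninduced cells in either line at either time (edgeR, 0 of 35 in each comparison). In SKMEL2, 0.0124% of all 16120 tested genes were called at 6 hours and 0.0124% at 18 hours, and in SKMEL30 0.206% and 0.293% of 15026. DESeq2 also called 0 members in each of the 4 comparisons. At an unadjusted p under 0.05 the counts were 1 and 2 of 35 members in SKMEL2 and 3 and 4 of 35 in SKMEL30. Of all genes, 3.37% and 4.65% in SKMEL2 and 6.44% and 9.14% in SKMEL30 reached it. With both induced groups pooled against uninduced cells, edgeR and DESeq2 again called 0 of 35 members in each line, against 0.0186% of all genes in SKMEL2 and 0.260% in SKMEL30. In this pooled comparison 2 and 5 of 35 members were at an unadjusted p under 0.05, beside 4.42% of all genes in SKMEL2 and 8.67% in SKMEL30.

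The estimates were small in both directions. The median log2 fold change over the 35 members was -0.001 at 6 hours and -0.0016 at 18 hours in SKMEL2, and 0.0028 and 0.034 in SKMEL30, beside medians over all genes of 0.0026, -0.0002, 0.0005 and 0.0007. In SKMEL2 the members ran from -0.12 to 0.24 at 6 hours and from -0.28 to 0.16 at 18 hours, and in SKMEL30 from -0.17 to 0.20 and from -0.10 to 0.20. In SKMEL30 the 95% interval of every member at 6 hours, and of 34 of 35 at 18 hours, lay within 0.5 on either side of 0. In SKMEL2 this held for 32 members at 6 hours and 33 at 18 hours. The intervals were widest for the members of low count: DERL3 spanned -0.71 to 0.15 in SKMEL2 at 18 hours and -0.23 to 0.63 in SKMEL30, and SDF2L1 -0.42 to 0.65 in SKMEL2.

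For scale, C21orf91, a gene outside the list that was called in all 4 comparisons, had log2 fold changes of 1.13 and 1.29 in SKMEL2 and 1.12 and 1.15 in SKMEL30. The summed level of the 35 members was 7672 ± 127 CPM (SD, n = 3) in SKMEL2 without doxycycline, 7578 ± 110.0 CPM after 6 hours of it and 7522 ± 189 CPM after 18 hours. For SKMEL30 the corresponding sums were 9234 ± 73.2, 9256 ± 37.4 and 9445 ± 111 CPM. In SKMEL2 the sums of the 3 groups overlapped, and in SKMEL30 the 3 sums at 18 hours (9372 to 9573 CPM) lay above the 3 of uninduced cells (9164 to 9310 CPM). A sum weighs the most abundant members most and does not describe each member. How often sums of other genes were set apart as 3 against 3 libraries was not counted.

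**Figure D4:**
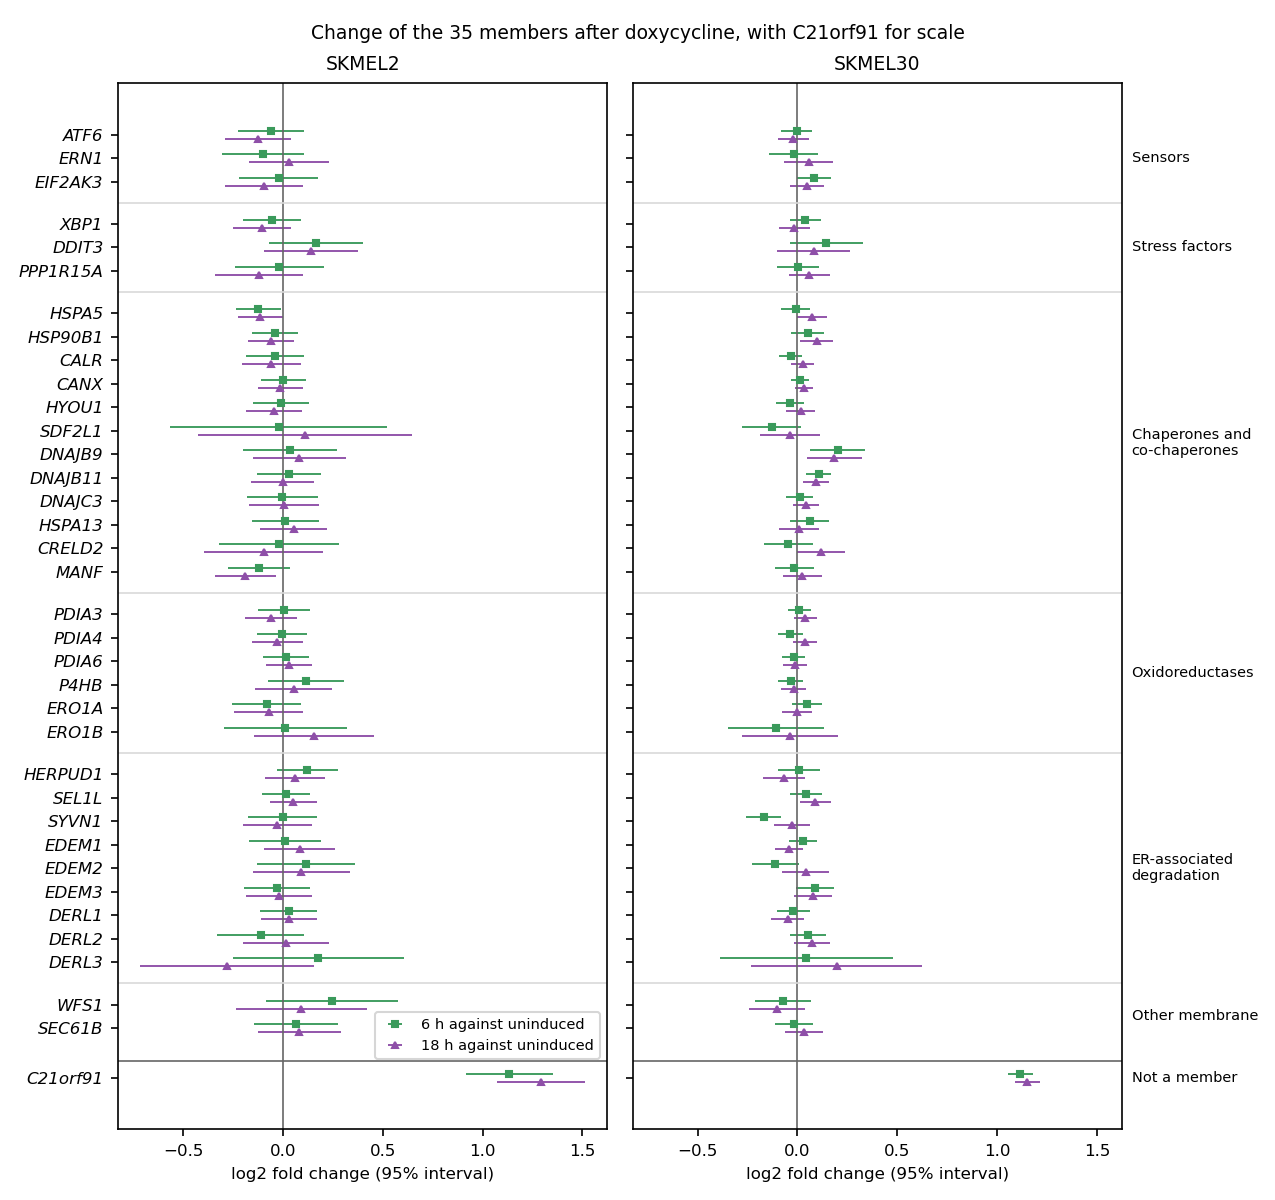
Log2 fold change of each member against uninduced cells at 6 and 18 hours, with 95% intervals from edgeR (3 against 3 libraries), in SKMEL2 (left) and SKMEL30 (right). The members sit around 0, and C21orf91, drawn below the line for scale, lies above 1 in all 4 comparisons.

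No sensor was called after induction. At 6 and 18 hours the log2 fold changes of ATF6 were -0.058 and -0.13 in SKMEL2 and -0.0034 and -0.022 in SKMEL30, none of them called. Those of ERN1 were -0.10 and 0.031 in SKMEL2 and -0.018 and 0.056 in SKMEL30. Those of EIF2AK3 were -0.021 and -0.095 in SKMEL2 and 0.084 and 0.046 in SKMEL30, and its SKMEL30 libraries stood at 46.2, 46.9 and 45.1 CPM before induction, 48.4, 49.7 and 48.5 CPM at 6 hours and 47.3, 48.8 and 46.8 CPM at 18 hours. The 3 values at 6 hours lay above all uninduced ones, while those at 18 hours overlapped them. How many of all genes were set apart as 3 against 3 libraries was not counted.

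The stress factors did not pass the test either. XBP1 stood at 32.5, 33.4 and 31.4 CPM in uninduced SKMEL2, 31.5, 31.3 and 30.5 CPM at 6 hours and 31.2, 28.2 and 30.9 CPM at 18 hours, and its log2 fold changes were -0.056 and -0.11 in SKMEL2 and 0.039 and -0.017 in SKMEL30. DDIT3 stood at 10.3 ± 0.777, 11.6 ± 0.235 and 11.4 ± 1.38 CPM in SKMEL2 and at 12.2 ± 1.15, 13.4 ± 0.0506 and 12.9 ± 1.03 CPM in SKMEL30 (SD, n = 3 each). Its estimates were above 0 in all 4 comparisons, at 0.17 and 0.14 in SKMEL2 and 0.14 and 0.081 in SKMEL30, with 95% intervals that all crossed 0 and an upper bound of at most 0.40. PPP1R15A had estimates between -0.12 and 0.059.

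HSPA5 was the member with the smallest p at 6 hours in SKMEL2. Its level there was 761, 750.4 and 747.5 CPM before induction, 697, 709.9 and 662 CPM at 6 hours and 678, 685 and 728 CPM at 18 hours. All 6 induced libraries lay below the 3 uninduced ones. It was the 1 member of 35 whose groups did not overlap in SKMEL2 (2.86%), and 2.48% of all tested genes had groups set apart in this way, above or below. The log2 fold changes were -0.12 (95% interval -0.24 to -0.012) and -0.11 (95% interval -0.23 to -0.0016), with adjusted p of 0.989 and 0.987 by edgeR. Taken alone, the exact permutation test of 6 induced against 3 uninduced libraries gave a difference of -0.12 in log2(CPM + 1) and p = 0.0119, two-sided and unadjusted, the smallest the 84 assignments can give and 1 of 70 such tests on the members. Groups that do not overlap bring this p close to its floor, so it adds little to the separation itself. In SKMEL30, HSPA5 stood at 806, 787 and 842, then 811, 802.5 and 809 and then 839.6, 824 and 898 CPM, and the groups overlapped.

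MANF had the smallest p at 18 hours in SKMEL2. It stood at 63.6, 66 and 74.2 CPM before induction, 62.2, 65.6 and 59.7 CPM at 6 hours and 56.7, 60.9 and 61.8 CPM at 18 hours. The 18-hour and uninduced values did not overlap, but the share of all genes set apart as 3 against 3 libraries was not counted. The highest uninduced value came from replicate 3, the library that stood apart. The log2 fold change at 18 hours was -0.19 (95% interval -0.34 to -0.034, adjusted p = 0.987, edgeR), and without that library it was -0.12. The single permutation test of induced against uninduced libraries gave -0.15 and an exact p of 0.0238 (unadjusted).

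The other members named by rank in SKMEL2 showed no groups set apart over both times. HERPUD1 had 0.12 (SE 0.07) at 6 hours, WFS1 0.24 (SE 0.15) and DDIT3 0.17 (SE 0.11). The WFS1 value rested on replicate 3 at 6 hours, with libraries at 16.5, 18 and 25 CPM and a log2 fold change of 0.036 without it, and the same library had the highest P4HB, at 414, 400.5 and 513.5 CPM, and the lowest DERL2, at 24.2, 26.4 and 18.8 CPM. At 18 hours DERL3 had -0.28 (SE 0.20), XBP1 -0.11 (SE 0.067) and ATF6 -0.13 (SE 0.076).

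In SKMEL30, which had the tighter replicates, DNAJB11 and DNAJB9, which are J-domain partners of HSPA5, had estimates above 0 at both times. DNAJB11 stood at 156, 158 and 156 CPM before induction, 174.5, 167 and 166 CPM at 6 hours and 169, 166 and 167 CPM at 18 hours. DNAJB9 stood at 20.8, 20.6 and 20.0, then 24.5, 24 and 22.5 and then 22.5, 22 and 25.2 CPM. In both genes the lowest of the 6 induced libraries exceeded the highest of the 3 uninduced ones. The log2 fold changes of DNAJB11 were 0.11 (95% interval 0.043 to 0.17) and 0.093 (0.03 to 0.16), or 1.08-fold and 1.07-fold, with adjusted p of 0.369 and 0.316 by edgeR. Those of DNAJB9 were 0.20 (0.065 to 0.34) and 0.18 (0.046 to 0.32), with adjusted p of 0.49 and 0.38, and without replicate 3 at 18 hours the later value was 0.12. DNAJC3, another J-domain protein of the list, had 0.012 and 0.043 (SE 0.031 each) in SKMEL30, and its groups overlapped.

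DERL2 also had 6 induced libraries above the 3 uninduced ones, at 42, 41.4 and 40.7 CPM before induction against 42.5, 42.2 and 44.1 CPM at 6 hours and 44.2, 42.8 and 43.4 CPM at 18 hours. These 3 genes were 8.57% of the members, and 4.37% of all tested genes in SKMEL30 had groups that did not overlap. The exact permutation p-values, unadjusted, were 0.0119 for DNAJB11, 0.0238 for DNAJB9 and 0.0238 for DERL2. Groups that do not overlap bring such a p close to its floor, so these values restate the separation and add no support. Of the 70 permutation tests on members, 6 gave p under 0.05. The others were HSPA5 and MANF in SKMEL2 and EIF2AK3 in SKMEL30 (exact permutation p = 0.0357). For DERL2 the difference in log2(CPM + 1) was 0.061, and without uninduced replicate 2 or 3 it was 0.061 or 0.05, with an exact permutation p of 0.0714 in both cases, where the 28 assignments left can give no p below 0.0357. In SKMEL2 the same 3 genes had log2 fold changes of 0.03 and -0.0016, 0.035 and 0.083, and -0.11 and 0.015, and their groups overlapped.

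SYVN1, the ERAD ubiquitin ligase, had the smallest p of any member at 6 hours in SKMEL30. It stood at 59, 63.4 and 59.7 CPM before induction, 53.6, 53.9 and 54.5 CPM at 6 hours and 57.4, 60.6 and 60.9 CPM at 18 hours. The 3 values at 6 hours were close together and below all others, and those at 18 hours overlapped the uninduced ones. Here too the share of all genes set apart as 3 against 3 libraries was not counted. The log2 fold change at 6 hours was -0.17 (95% interval -0.26 to -0.081, adjusted p = 0.257, edgeR), and at 18 hours it was -0.028 (-0.12 to 0.061). With no filter on low counts the 6-hour value was called (adjusted p = 0.0328, edgeR), the one call of a member under any alternative of an induction comparison. At 6 hours EDEM2 followed with -0.11 (SE 0.055), and at 18 hours HSP90B1 with 0.10 (SE 0.039), SEL1L with 0.089 (SE 0.036) and HSPA5 with 0.073 (SE 0.034). The HSPA5 value was 0.036 without replicate 3 at 18 hours. HSP90B1 had 0.051 at 6 hours in SKMEL30 and -0.039 and -0.061 in SKMEL2.

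**Figure D5:**
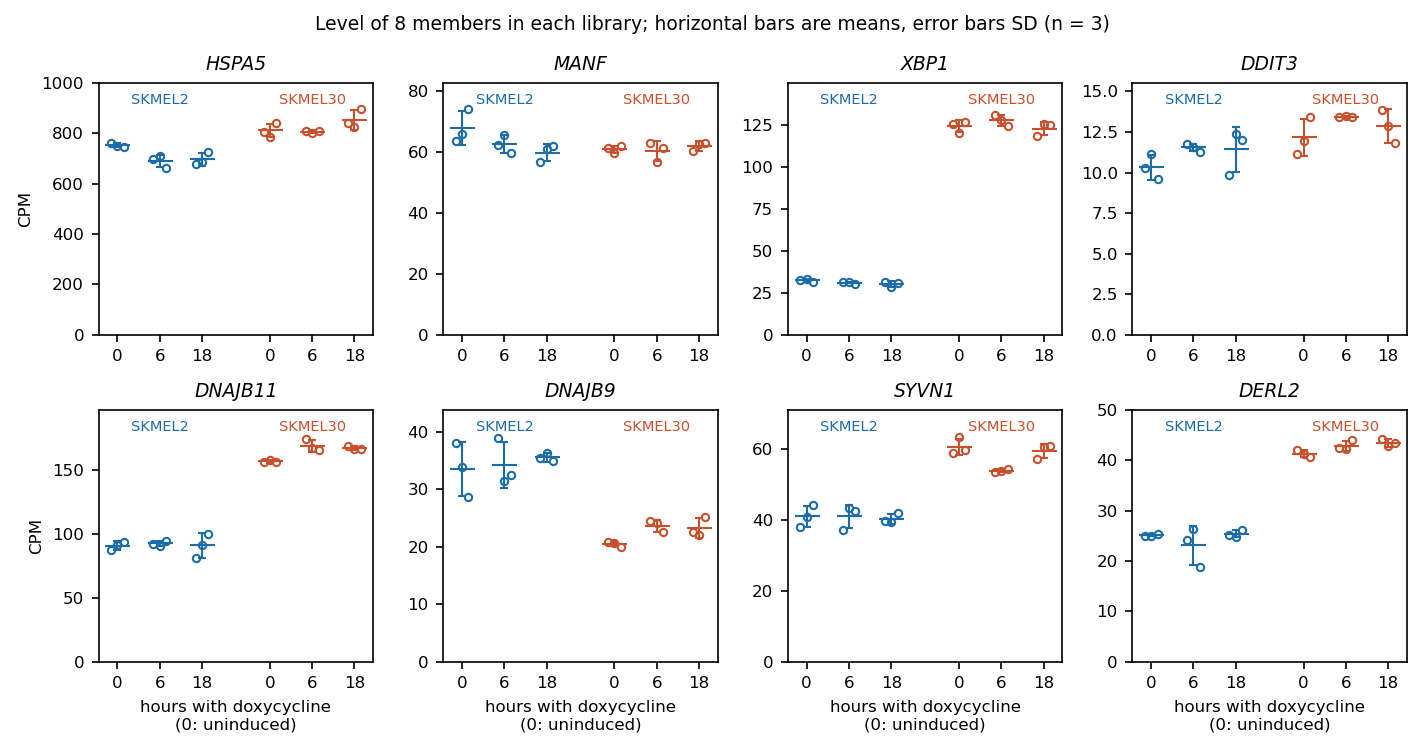
Level in CPM of 8 members in each of the 18 libraries by hours with doxycycline (0 is uninduced), SKMEL2 in blue and SKMEL30 in orange; circles are libraries, horizontal bars means and error bars SD (n = 3). HSPA5 lies lower in the induced libraries of SKMEL2, DNAJB11, DNAJB9 and DERL2 lie higher in those of SKMEL30, and SYVN1 dips at 6 hours in SKMEL30, while XBP1 differs mainly between the lines.

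Read by role, the signs of the estimates were mixed. Of the 12 chaperones and co-chaperones, 8 had estimates below 0 at 6 hours and 8 at 18 hours in SKMEL2 (medians -0.015 and -0.03), whereas in SKMEL30 6 were below 0 at 6 hours and 1 at 18 hours (medians 0.0015 and 0.038). The 6 oxidoreductases had medians of 0.0098 and 0.0014 in SKMEL2 and -0.026 and -0.0065 in SKMEL30. The 9 ERAD genes had medians of 0.015 and 0.028 in SKMEL2 and 0.026 and 0.041 in SKMEL30. None of these members was called, and the counts describe the signs of estimates that share their control libraries. The 11 members with an element had medians of -0.021 and -0.045 in SKMEL2 and -0.019 and 0.015 in SKMEL30, beside -0.001 and 0.015, and 0.012 and 0.041, in the 21 without one.

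The times were also compared directly. Between 18 and 6 hours edgeR and DESeq2 called 0 of 35 members in either line, against 0.00% of all genes in SKMEL2 and 0.0200% in SKMEL30. At an unadjusted p under 0.05 there were 1 and 7 of 35 members, beside 2.59% and 5.56% of all genes. In SKMEL30 this was a larger share of the members than of all genes, and that excess was not tested. In SKMEL30 the smallest p belonged to SYVN1, at 0.14 (SE 0.042), followed by CRELD2 at 0.17 (SE 0.056) and EDEM2 at 0.15 (SE 0.055), all higher at 18 hours. CRELD2 stood at 33.1, 31.2 and 33.9 CPM at 6 hours and 38.8, 34 and 37 CPM at 18 hours. In SKMEL2 the members with the smallest p were DERL3 at -0.46 (SE 0.20), ERN1 at 0.13 (SE 0.094) and DERL2 at 0.13 (SE 0.10). Without replicate 3 at 6 hours the DERL2 value was 0.0096, and without replicate 2 at 6 hours it was 0.23. The ERN1 value was 0.074 without replicate 1 at 18 hours.

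Whether the lines responded differently was tested as an interaction over all 18 libraries. No member was called at 6 or at 18 hours by edgeR or DESeq2, against 0.00% and 0.00584% of all genes. At an unadjusted p under 0.05 there were 0 of 35 members at 6 hours and 3 of 35 at 18 hours, where 4.91% and 5.16% of all genes reached it. The 3 were HSPA5, MANF and HSP90B1, chosen after their values were seen, with differences in response (SKMEL2 minus SKMEL30) of -0.18 (SE 0.062), -0.21 (SE 0.086) and -0.15 (SE 0.069), each at an adjusted p of 0.895 (edgeR).

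A wider list of 106 genes of ER folding, glycan processing, translocation, ERAD and stress signaling was read in the same way, and 104 of them were in the table. None was called after induction in either line at either time by edgeR or DESeq2, of 100 tested in SKMEL2 and 102 in SKMEL30. At an unadjusted p under 0.05 there were 2, 1, 5 and 3, beside 3.37%, 4.65%, 6.44% and 9.14% of all genes. The smallest p in SKMEL2 belonged at both times to TRIB3, a pseudokinase induced downstream of ATF4 and DDIT3. It stood at 28.2, 27.7 and 23.5 CPM before induction, 33.9, 28.1 and 37.7 CPM at 6 hours and 32.6, 29.3 and 33.8 CPM at 18 hours, with log2 fold changes of 0.33 (SE 0.11) and 0.27 (SE 0.11). In SKMEL30 the smallest p belonged to PPP1R15B, the constitutive relative of PPP1R15A, at 6 hours (0.12 (SE 0.041)) and to FAM8A1, a component of the SYVN1 complex, at 18 hours (0.13 (SE 0.043)).

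Between the uninduced lines 72 of 102 related genes (70.6%) were called, 45 lower and 27 higher in SKMEL2, and their median log2 difference was -0.07. Over all genes 75.9% were called, 35.8% lower and 40.1% higher, with a median log2 difference of 0.055. SERPINH1 (HSP47), the collagen chaperone, stood at 83.3, 87.8 and 85.6 CPM in SKMEL30 and had 2 to 4 counts per library in SKMEL2. FKBP10, a prolyl isomerase that also acts on collagen, stood at 11.2, 14 and 11.1 CPM in SKMEL2 and 132, 141 and 128 CPM in SKMEL30, a log2 difference of -3.46 (SE 0.085). CLGN, the testis relative of CANX, was at 0 to 3 counts per library in SKMEL2 and 9 to 12 in SKMEL30.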

How the data were processed

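The authors extracted RNA with the Qiagen RNeasy kit, made libraries with the KAPA mRNA HyperPrep kit and aligned reads to GRCh38. They deposited expected counts per gene, estimated with RSEM 1.3.0 and not scaled for depth, which were rounded to whole numbers here. The submitters' processing notes also name Trimmomatic, cutadapt, STAR and SAMtools 1.8. Totals of 13402645 to 22383470 counts bound the precision, and with 3 libraries per group the spread between libraries sets most of the error.

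In edgeR 4.0.16 (R 4.3.3) genes were kept by filterByExpr, scaled by TMM and fitted with glmQLFit and glmQLFTest over the 9 libraries of a line, or over all 18 between lines. A 95% interval comes from the same fit. Single members were also tested by exact permutation of log2(CPM + 1) between 6 induced and 3 uninduced libraries, over 84 assignments. DESeq2 1.42.0, RLE factors, other filters, other sets of libraries, the replicate number as a block and each library left out were alternatives. The line difference in induced libraries, the members with groups that do not overlap and the promoter search were added after seeing the data. Fits were tested on simulated data.

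Members and lists were chosen with earlier results of these data known. All members are accounted for. Induction values are given for the 5 members with the smallest p in each comparison with uninduced cells, the 3 in each comparison of 18 with 6 hours, and HSPA5, HSP90B1, XBP1, DDIT3, ATF6, ERN1 and EIF2AK3. Of the related genes, those with the smallest p and the 3 largest line differences are named. Others were named after their values were seen. Transcript lengths came from GENCODE v44 (GRCh37) by gene ID, and gene names were matched for 95.8% of IDs.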

Additional observations from a re-analysis of the deposited data

How the results depend on the processing

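No member was called in any comparison of induced with uninduced cells, of 18 with 6 hours or of the lines' responses under the alternatives run, except 1 member, SYVN1, in SKMEL30 at 6 hours with no filter on low counts (log2 fold change -0.17, adjusted p = 0.0328, edgeR). Between the uninduced lines 33 members were called, 28 to 34 under the alternatives with the same threshold, and 7 where a 2-fold difference was also required. Of all genes, 75.9% were called in the main fit and 34.7% also at 2-fold or more. The shares of all genes under the other alternatives are not given here. DESeq2 called 31, RLE factors 32, the minimum of 10 counts in every library 31, no filter 30 and a fit of only the 6 libraries 29. Leaving out 1 library gave 28 to 32, with 28 without uninduced SKMEL2 replicate 3. Whether the replicate numbers pair the libraries was not settled, because only same-numbered libraries were compared. Their deviations from the group means correlated at -0.181 to 0.28 in SKMEL2, where 4 of 9 exceeded 0.1, and at -0.025 to 0.139 in SKMEL30, where 2 of 9 did. For replicate 1 of SKMEL2 the correlations were 0.28, 0.202 and 0.116. With the replicate number as a block 34 members were called between the uninduced lines, EDEM3 in addition (adjusted p = 0.0372, edgeR), and 0 in each comparison within a line and in each test of different responses.

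Estimates near 0 changed sign when 1 library was left out. The log2 fold changes then ran from -0.073 to 0.029 for EIF2AK3 in SKMEL2 at 6 hours and from -0.026 to 0.094 for ERN1 in SKMEL2 at 18 hours. In SKMEL30 at 6 hours they ran from -0.031 to 0.019 for HSPA5, from -0.0069 to 0.085 for HSP90B1, from -0.044 to 0.017 for ATF6 and from -0.0345 to 0.0057 for ERN1, and at 18 hours from -0.0405 to 0.011 for XBP1. Of the 26 estimates after induction or between times that were named by rank, 10 moved by over 1.5 times when 1 library was left out, and none of the 26 changed sign. Apart from those given above with their values, these were MANF (-0.051) and DDIT3 (0.11) in SKMEL2 at 6 hours and ATF6 (-0.068) in SKMEL2 at 18 hours, all without uninduced replicate 3, and XBP1 (-0.063) in SKMEL2 at 18 hours without replicate 2 of that time. The cause was not tested. Changes of the size seen here were near the replicate spread, which limits SKMEL2 more than SKMEL30.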
